A study of Saccharomyces cerevisiae with 24 samples.

Results

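Intermediate pipetting speeds were compared with the slowest one in budding yeast RNA-seq data. The 12 libraries of cells pipetted at 130 or 210 µL/s were set against the 6 libraries of cells pipetted at 50 µL/s, which are 18 of the 24 libraries in the series. Libraries were chosen by the speed in their labels and matched by culture and technical replicate, so that each of the 6 matched sets holds 1 library at each speed. The matched sets are written B1T1 to B2T3 below, where B is the culture (biological replicate) and T the technical replicate.

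All cells were of the W303-1B wild-type strain, labelled W303 WT, which carries the alleles ade2, can1, his3, leu2, trp1 and ura3. They were grown in rich glucose medium (YPD) with adenine, and no drug was added. A liquid-handling robot drew samples from 2 liquid cultures of 1 clone at each speed in 3 technical replicates, and the poly(A) RNA of each sample was sequenced. The groups were therefore 130 µL/s (6 libraries), 210 µL/s (6 libraries) and 50 µL/s (6 libraries), and the same 2 cultures supplied each of them. Per the methods of the study, water was put into the sample tubes before the yeast, in volumes set from absorbance to even out cell density. These volumes were not examined here. With 2 cultures the p-values measure the spread between these libraries, much of which may be technical. For its growth assay the study chose a spotting order meant to keep order and speed apart, and it put elapsed time in that model. The order in which the robot drew the samples for RNA was not given in the sources used here, so speed and the time a culture waited cannot be told apart.

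Pipetting moves cells through a narrow tip and exposes them to shear. Budding yeast answers many disturbances with a shared program in which the transcription factors Msn2 and Msn4 raise genes for chaperones, antioxidant enzymes and the storage sugars glycogen and trehalose, while genes for ribosomal proteins and ribosome assembly fall. These genes also follow the growth rate and the glucose left in the medium, so their messages shift readily while a culture stands.

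Total expected counts were between 11555784 and 15464458 per library over the 18 libraries, with a median of 13123683. Total counts, the share of counts in the 50 most abundant genes and the number of genes at 0 gave p = 0.273, 0.374 and 0.599 between 130 and 210 µL/s together and 50 µL/s (exact permutation tests within the matched sets, two-sided). The mean fragment length was 184 ± 2.73 bases at 130 µL/s and 185 ± 2.23 at 210 µL/s, against 182 ± 3.12 at 50 µL/s (SD, n = 6 each), with an exact permutation p of 0.0823. The α-cell genes MF(ALPHA)1 and STE3 stood at 3990 to 4620 and 292 to 391 TPM (a transcript share scaled for gene length and library) in these libraries, and the a-cell receptor gene STE2 at 4.1 to 7.39 TPM, whereas the strain is listed as MATa in the methods of the study. Genes of sporulating cells were low at every speed, with NDT80 at 1.57 to 2.42 TPM.

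Of the 5142 genes tested, 3 passed an FDR of 0.01 between the intermediate speeds together and 50 µL/s, which is 0.0583% of the genes (edgeR's quasi-likelihood test on expected counts with the 6 matched sets as a block, Benjamini-Hochberg adjustment over all genes). All 3 fell, namely COM2, TOS3 and TDA6. None rose, while 251 genes (4.88%) were higher and 353 (6.87%) lower at an unadjusted p below 0.05. The count was 0 without the 50 µL/s library of B2T1, 7 without that of B2T3, and 1, COM2, without any of the 50 µL/s libraries of B1T1 and B1T3, the 130 µL/s libraries of B1T3 and B2T3 or the 210 µL/s library of B2T2. A model without the matched sets called 0 genes.

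**Figure D1:**
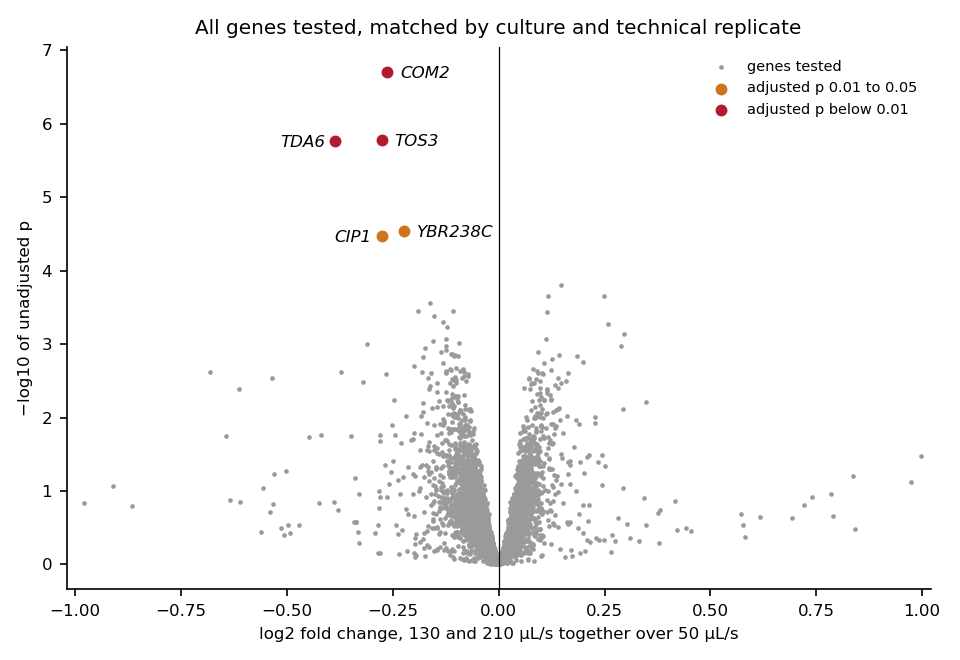
Each point is a gene, with its log2 fold change of 130 and 210 µL/s together over 50 µL/s on the x axis and −log10 of its unadjusted p on the y axis. COM2, TOS3 and TDA6 lie apart at the upper left, and 7 of the 5142 genes lie outside the x axis shown.

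COM2 encodes a zinc-finger transcription factor known for its part in tolerance of sulfite. Its level in CPM (counts scaled to library size with TMM factors) was 75.7, 83.5, 71.3, 70.6, 73.4 and 67.4 at 130 µL/s in B1T1, B1T2, B1T3, B2T1, B2T2 and B2T3, and 65.8, 82.2, 68.8, 73.1, 66.7 and 64.8 at 210 µL/s in the same order. At 50 µL/s it was 90.6, 100.0, 86.2, 94.8, 74.1 and 73.3. COM2 was lower in 12 of 12 matched pairs, with the smallest gap in B2T2 at 130 µL/s, and the libraries of the 2 groups overlapped because the 50 µL/s libraries of B2T2 and B2T3 were low. It fell by 16.6% at both speeds together (log2 fold change −0.26, SE 0.035, adjusted p = 0.00101, edgeR).

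TOS3 encodes a kinase that activates Snf1, the yeast AMP-activated kinase used when glucose runs low. It stood at 34.9, 39.9, 43.9, 34.0, 42.6 and 36.3 CPM at 130 µL/s and at 33.2, 41.0, 44.6, 32.6, 37.1 and 37.2 CPM at 210 µL/s, against 43.3, 44.3, 54.2, 45.0, 49.0 and 41.0 CPM at 50 µL/s, in the order B1T1 to B2T3. Each of the 12 pairs was lower at the intermediate speed, although the ranges of the groups overlapped. TOS3 fell by 17.4% (log2 fold change −0.28, SE 0.042, adjusted p = 0.00296, edgeR), and the adjusted p was 0.0172 with the mean fragment length of each library as a covariate.

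TDA6 encodes a protein of the vacuolar sorting family of Vps62 whose function is not settled. Its levels were 27.5, 30.0, 24.5, 28.5, 28.1 and 24.3 CPM at 130 µL/s and 22.3, 27.2, 21.6, 23.3, 19.7 and 22.3 CPM at 210 µL/s, against 35.2, 39.8, 31.5, 36.7, 26.0 and 27.0 CPM at 50 µL/s, in the order B1T1 to B2T3. It was lower in 11 of 12 pairs, the exception being B2T2 at 130 µL/s. TDA6 fell by 23.5% (log2 fold change −0.39, SE 0.059, adjusted p = 0.00296, edgeR). Without the 50 µL/s library of B1T1, TOS3 and TDA6 had adjusted p = 0.0211 and 0.0231.

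**Figure D2:**
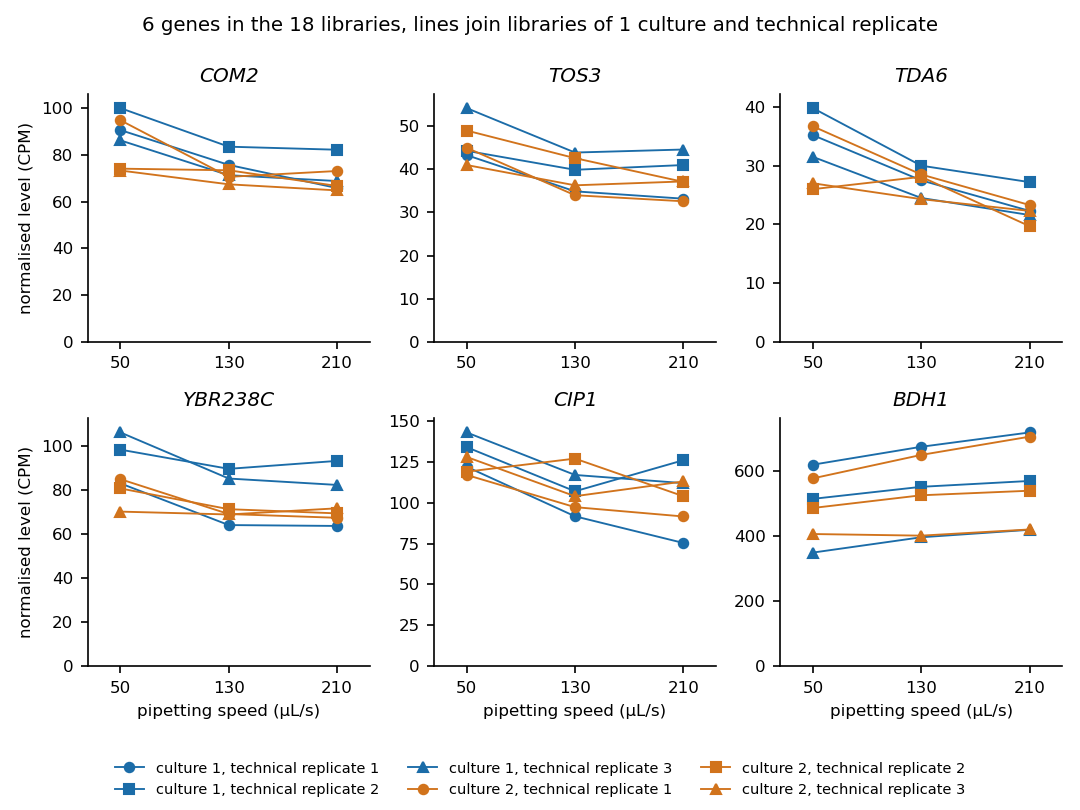
Level of 6 genes (CPM, y axis) at 50, 130 and 210 µL/s (x axis), where each line joins the libraries of 1 culture (color) and 1 technical replicate (symbol). For COM2 and TOS3 each line is lower at 130 and at 210 µL/s than at 50 µL/s, while BDH1 lines start at 349 to 619 CPM and differ more between lines than along them.

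At 130 µL/s alone no gene passed against 50 µL/s (0 of 5142, edgeR's quasi-likelihood test), and 317 genes (6.16%) reached an unadjusted p below 0.05, of which 124 (2.41%) were higher and 193 (3.75%) lower. DESeq2 called 1 gene, COM2, the likelihood ratio test of edgeR called 2, COM2 and TOS3, and limma-voom called 0. COM2 had a log2 fold change of −0.23 (SE 0.041, adjusted p = 0.0771), TOS3 one of −0.26 (SE 0.049, adjusted p = 0.0915) and TDA6 one of −0.26 (SE 0.069, adjusted p = 0.594) in edgeR's quasi-likelihood test.

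At 210 µL/s, 3 genes passed against 50 µL/s (0.0583%), which were again COM2, TDA6 and TOS3, and 654 genes (12.7%) reached an unadjusted p below 0.05, 277 (5.39%) higher and 377 (7.33%) lower. TDA6 fell by 30.0% (log2 fold change −0.52, SE 0.070, adjusted p = 0.00076), COM2 by 18.7% (−0.30, SE 0.041, adjusted p = 0.00076) and TOS3 by 18.6% (−0.30, SE 0.050, adjusted p = 0.00961, edgeR). Both speeds were set against the same 50 µL/s libraries, so the appearance of a gene in both comparisons is not independent. The count at 210 µL/s was 0 in the model without the matched sets, with additive replicate terms or with only the 2 speeds fitted, and 1 with only the 18 libraries. It was below 3 in 18 of the 24 fits that left out 1 library, with a lowest count of 2. It was 5 without the 290 µL/s library of B1T1, and it was 12 without the 50 µL/s library of B2T3, with BDH1, YBR238C and several glycogen enzyme genes added.

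The direct comparison of 210 with 130 µL/s called no gene (0 of 5142, edgeR's quasi-likelihood test). DESeq2 called 0 genes there too, as did voom and edgeR's likelihood ratio test. An unadjusted p below 0.05 was reached by 193 genes (3.75%), 109 (2.12%) higher and 84 (1.63%) lower at 210 µL/s. TDA6 had a log2 fold change of −0.26 between these speeds (95% interval −0.41 to −0.11), COM2 one of −0.07 (−0.16 to 0.01) and TOS3 one of −0.04 (−0.14 to 0.07). The calls at 210 and their absence at 130 µL/s do not show that the speeds differ. A fit of the 2 speeds alone called 2 genes in this comparison, ICL1, which encodes the glyoxylate cycle enzyme isocitrate lyase, and YNL194C, a membrane protein gene.

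At an FDR of 0.05 YBR238C and CIP1 were added to the 3 genes for both speeds together. YBR238C encodes a mitochondrial protein related to Rmd9 that is known from work on lifespan. It stood at 63.6 to 93.1 CPM with a median of 70.2 in the 12 libraries at intermediate speeds, against 70.1 to 106 CPM with a median of 83.8 at 50 µL/s (log2 fold change −0.22, SE 0.042, adjusted p = 0.0345, edgeR, lower in 11 of 12 pairs). CIP1, an inhibitor of the cyclin-dependent kinase that acts in the G1 phase, stood at 75.4 to 127 CPM with a median of 106, against 117 to 143 CPM with a median of 125 at 50 µL/s (−0.28, SE 0.053, adjusted p = 0.0345, edgeR, lower in 11 of 12 pairs).

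The genes nearest the threshold in the other direction were BDH1 and NQM1. BDH1, the butanediol dehydrogenase gene, averaged 533 ± 118 CPM at 130 µL/s and 562 ± 131 CPM at 210 µL/s, against 492 ± 102 CPM at 50 µL/s (SD, n = 6 each). It was higher in 11 of 12 pairs with a log2 fold change of 0.15 (SE 0.032, adjusted p = 0.136, edgeR). NQM1, which encodes a transaldolase of the pentose phosphate pathway, averaged 51.9 ± 16.0 CPM at 130 µL/s and 57.9 ± 22.5 CPM at 210 µL/s, against 46.4 ± 17.9 CPM at 50 µL/s, with a log2 fold change of 0.25 (SE 0.056, adjusted p = 0.142, edgeR). At 210 µL/s alone both had an adjusted p of 0.0588 by edgeR's quasi-likelihood test, and DESeq2 and the likelihood ratio test called both there. Neither passed the threshold in edgeR's quasi-likelihood test with all libraries fitted. For each of them the technical replicates of 1 speed spanned a wider range than the speeds.

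Direction was also counted by pair. In 12 of 12 matched pairs 21 genes (0.408%) were higher and 25 (0.486%) lower at the intermediate speed, and no gene (0 of 5142) had its 12 intermediate libraries wholly on 1 side of the 6 at 50 µL/s. Since the 12 pairs share 6 libraries at 50 µL/s, a low or high library there moves 2 pairs. Among the 21 higher genes, SSN2 encodes a subunit of the Mediator kinase module, SPT7 a subunit of the SAGA coactivator and SET4 a SET-domain protein. SSN2 ranged from 73.8 to 97.0 CPM (median 85.8) at intermediate speeds, against 73.8 to 87.4 CPM (median 77.6) at 50 µL/s, and its log2 fold change was 0.12 (SE 0.026). Pairs were counted by sign however small the gap, and in B1T3 SSN2 stood at 73.8 CPM at both 130 and 50 µL/s. SPT7 had a log2 fold change of 0.11 (SE 0.029) and SET4 one of 0.26 (SE 0.064) from a low level of 7.29 to 11.7 CPM at intermediate speeds, against 6.37 to 10.2 CPM at 50 µL/s. Their adjusted p-values were 0.142, 0.202 and 0.181 (edgeR), so none passed.

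Metabolic genes also were among the 21. URA2, whose product carries out the first steps of pyrimidine synthesis, stood at 1960 to 2310 CPM with a median of 2130, against 1900 to 2200 CPM with a median of 2000 at 50 µL/s. In B2T1 its gap was small, with 2210 CPM at 130 µL/s against 2200 CPM at 50 µL/s. The log2 fold change of URA2 was 0.06 at 130 µL/s (SE 0.027, adjusted p = 0.786) and 0.10 at 210 µL/s (SE 0.027, adjusted p = 0.147, edgeR). ARG4, the argininosuccinate lyase of arginine synthesis, had a log2 fold change of 0.09 (SE 0.026), AMS1, the vacuolar α-mannosidase, one of 0.15 (SE 0.045) and TKL2, the minor transketolase, one of 0.16 (SE 0.048), each with an adjusted p of 0.202 for both speeds together (edgeR). JIP3 was also higher in 12 of 12 pairs but stood at only 0.154 to 0.610 CPM at intermediate speeds, against 0.0639 to 0.234 CPM at 50 µL/s.

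Among the 25 lower genes were regulators and several ribosomal protein genes. SSK1, a response regulator of the osmotic stress pathway, ranged from 95.8 to 110 CPM with a median of 100.0, against 102 to 118 CPM with a median of 108 at 50 µL/s (log2 fold change −0.11, SE 0.025, adjusted p = 0.155, edgeR). MCM1, a transcription factor of cell type and division genes, had a log2 fold change of −0.09 (SE 0.025, adjusted p = 0.202, edgeR). COM2 and TOS3 were the only genes of this group that passed the test.

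Standard errors were small for most genes, but they cover only counting error and the spread between these libraries of 2 cultures. Over all genes the standard errors had a median of 0.038 on the log2 scale for both speeds together, and the 95% interval lay within a 1.5-fold change in either direction for 97.2% of the genes tested and within a 2-fold change for 98.6%. For 130 and for 210 µL/s alone these shares were 96.7% and 98.2%. Genes whose interval reached past 1.5-fold had a median of 0.505 CPM, so the wide intervals belonged mostly to genes with few reads.

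Gene groups were next described by the genes they hold, with no test of the group. All the lists were chosen with earlier results of these data known. The 67 tested genes for cytosolic ribosomal proteins had 44 members lower and 0 higher at an unadjusted p below 0.05, against 6.87% lower and 4.88% higher over all genes, and none passed an FDR of 0.01. Genes of this family that were not measured here are not counted. Their median log2 fold change was −0.07 for both speeds together, −0.04 at 130 µL/s and −0.10 at 210 µL/s, beside a median of −0.01 over all genes in each comparison. The sign was negative in 62 of the 67 genes.

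RPL39, a small protein of the large subunit, had the lowest log2 fold change of them. It stood at 128, 152, 147, 140, 131 and 130 CPM at 130 µL/s and at 131, 130, 138, 126, 123 and 135 CPM at 210 µL/s, against 139, 176, 154, 166, 139 and 144 CPM at 50 µL/s, in the order B1T1 to B2T3. The log2 fold change was −0.15 at 130 µL/s (SE 0.052, adjusted p = 0.689) and −0.23 at 210 µL/s (SE 0.052, adjusted p = 0.117, edgeR). Lower values were seen in 12 of 12 pairs, and the gap was widest in B2T1 at 130 µL/s and in B1T2 at 210 µL/s. The 50 µL/s library of B1T2 was the highest of all. RPS30A, RPL26A, RPL33A and RPL14B were likewise lower in 12 of 12 pairs, with log2 fold changes of −0.13, −0.12, −0.10 and −0.09 for both speeds together. Many of these genes have a near-identical copy whose reads are divided by estimation, so the values of single copies are uncertain.

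The group medians differed between matched sets. At 130 µL/s the median of the ribosomal protein genes was −0.03, −0.12, −0.06, −0.06, −0.01 and 0.03 in B1T1 to B2T3, and at 210 µL/s it was −0.01, −0.24, −0.14, −0.16, −0.05 and −0.03. It was negative in 11 of 12 pairs, with the lowest values in B1T2. In the model without the matched sets 10 of the 67 genes, in place of 44, were lower at an unadjusted p below 0.05, while the median of −0.07 was alike.

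Other lists of the protein-making machinery gave mixed values. All 19 tested subunits of RNA polymerases I and III had negative log2 fold changes with a median of −0.07, and 4 were lower at an unadjusted p below 0.05. In the 62 mitochondrial ribosomal proteins the median was −0.04 with 10 lower and 0 higher. In the 53 ribosome biogenesis genes it was −0.07 with 3 lower and 0 higher, where 3 of 53 is no larger a share than the 6.87% lower over all genes. The medians of both lists were positive in 6 of 12 pairs, and that of ribosome biogenesis ran from −0.57 to 0.32 over the pairs. The 20 tested aminoacyl-tRNA synthetase genes had a median of 0.00, with 11 positive and 9 negative and none at an unadjusted p below 0.05. The median of the polymerase subunits moved between −0.39 in B1T3 at 210 µL/s and 0.18 in B1T1 at the same speed. This list therefore varied more between matched sets than between the 2 speeds.

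The 8 tested histone genes all had negative log2 fold changes, with a median of −0.08 and 5 members lower at an unadjusted p below 0.05. The share lower at that p was 6.87% over all genes. HTB2, which encodes histone H2B, stood at 191 to 258 CPM with a median of 234 at intermediate speeds, against 205 to 291 CPM with a median of 251 at 50 µL/s. It was lower in 12 of 12 pairs (log2 fold change −0.12, SE 0.036, adjusted p = 0.202, edgeR). Histone messages peak in S phase and their genes have close copies.

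**Figure D3:**
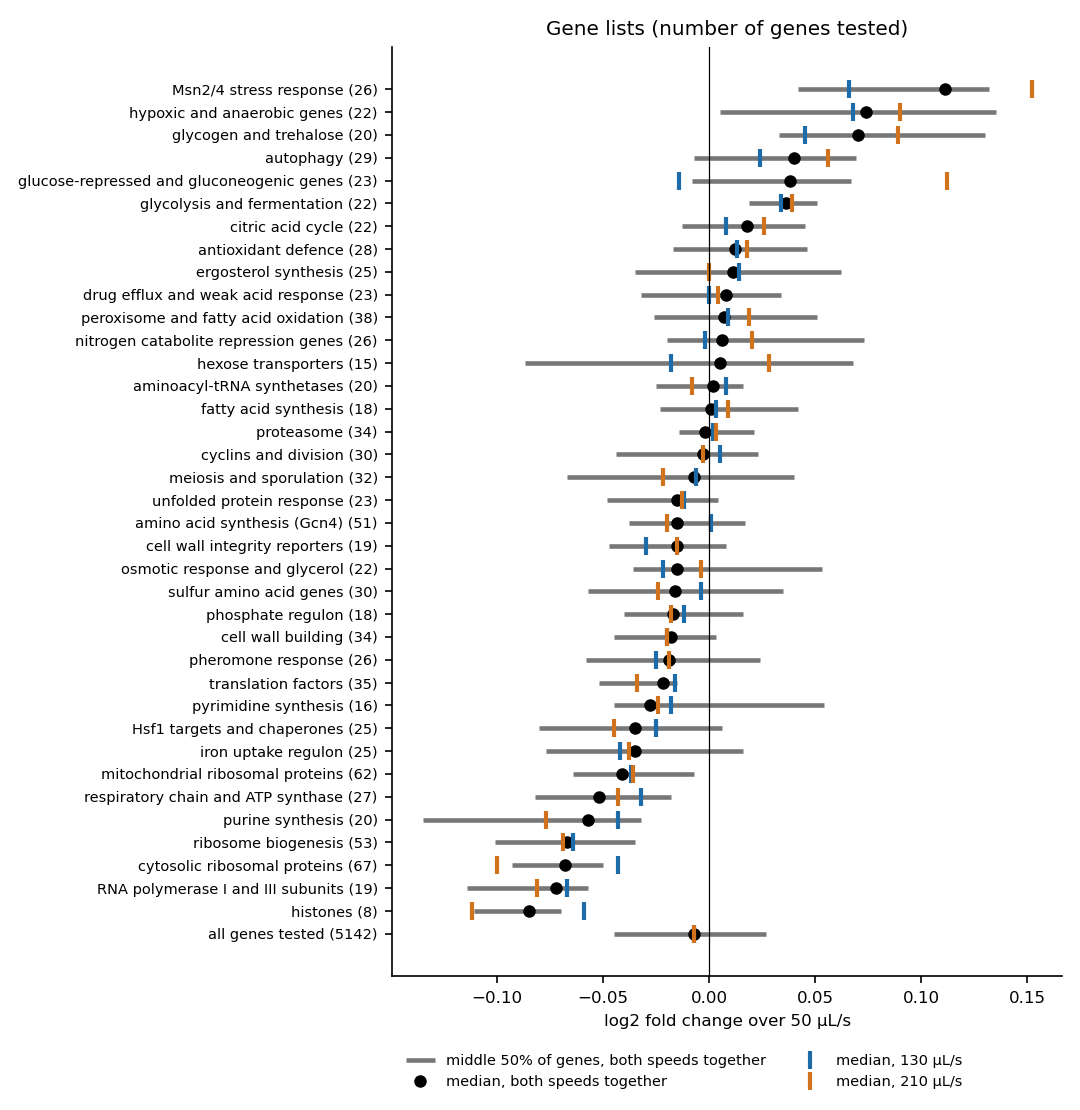
Median log2 fold change over 50 µL/s (x axis) of each gene list (y axis, number of genes tested in parentheses) for 130 µL/s, 210 µL/s and both together, with bars for the middle 50% of genes. For both speeds together stress response genes have the highest median and histones the lowest, and nearly all medians lie within 0.10 of 0 on the log2 scale.

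Stress response genes pointed the other way. Of the 26 tested targets of Msn2 and Msn4, 12 were higher and 1 lower at an unadjusted p below 0.05, and 0 passed an FDR of 0.01. Over all genes 4.88% were higher and 6.87% lower at that unadjusted p. The median log2 fold change was 0.11 for both speeds together, 0.07 at 130 µL/s and 0.15 at 210 µL/s. PHM8 was the lower member and encodes a phosphatase of lysophosphatidic acid and nucleotides, while the higher ones included HSP26, HSP12 and CTT1.

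HSP26, a small heat shock protein, was at 134 to 633 CPM with a median of 318 in the 12 libraries at intermediate speeds, against 94.4 to 591 CPM with a median of 266 at 50 µL/s. It was higher in 11 of 12 pairs (log2 fold change 0.29, SE 0.076, adjusted p = 0.202, edgeR). Within each speed and culture it was highest in the first technical replicate and lowest in the third, and this spread was several times that between speeds. HSP12, a membrane-protecting stress protein, and CTT1, the cytosolic catalase, had log2 fold changes of 0.13 (SE 0.040, adjusted p = 0.209) and 0.13 (SE 0.052, adjusted p = 0.361, edgeR), and that of CTT1 was 0.07 without the 50 µL/s library of B1T3.

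The median of the Msn2 and Msn4 targets was positive in 9 of 12 pairs. At 130 µL/s it was −0.03, 0.09, 0.18, 0.12, 0.13 and −0.16 in B1T1 to B2T3, and at 210 µL/s it was 0.07, 0.30, 0.28, 0.23, 0.10 and −0.12. The matched set B2T3 was thus opposite in sign at both speeds. Without the matched sets in the model 0 of the 26 genes were higher at an unadjusted p below 0.05, with a median of 0.11.

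**Figure D4:**
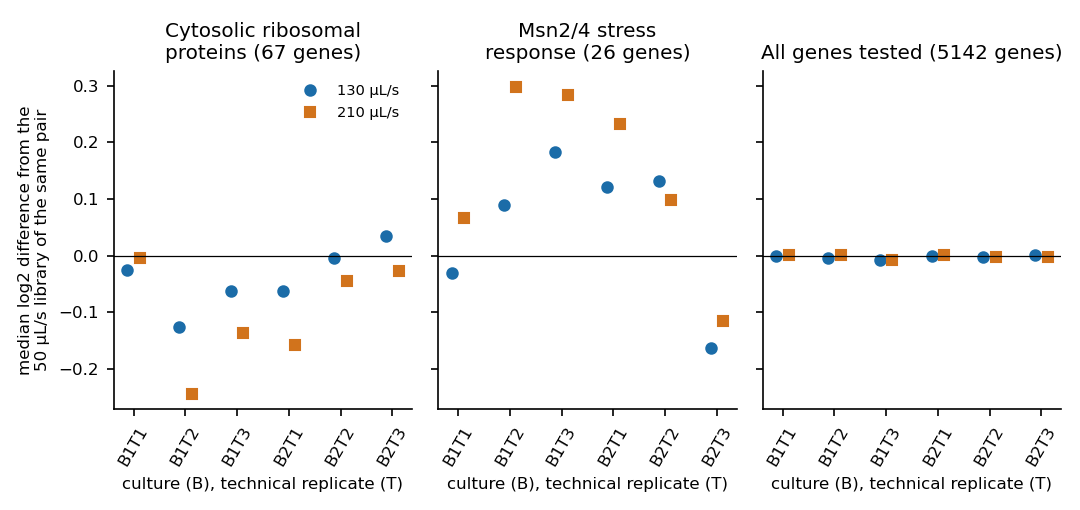
Median log2 difference of each library at 130 or 210 µL/s from the 50 µL/s library of its matched set (y axis), by culture and technical replicate (x axis). Ribosomal protein genes lie at or below 0 except in B2T3 at 130 µL/s, stress response genes lie above 0 except in B2T3 and in B1T1 at 130 µL/s, and all genes lie at about 0.

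Enzymes of glycogen and trehalose metabolism, a list chosen after values of these data were seen, had 7 of 20 tested members higher and 1 lower at an unadjusted p below 0.05. The shares over all genes were 4.88% higher and 6.87% lower. Their median log2 fold change was 0.07, and 19 of the 20 were positive. GLC3, the glycogen branching enzyme, averaged 890 ± 146 CPM at 130 µL/s and 969 ± 155 CPM at 210 µL/s, against 816 ± 146 CPM at 50 µL/s (SD, n = 6 each), a log2 fold change of 0.19 (SE 0.051, adjusted p = 0.202, edgeR). GSY1, a glycogen synthase, and GDB1, the debranching enzyme, had log2 fold changes of 0.14 (SE 0.042) and 0.20 (SE 0.056) with the same adjusted p. Some of these genes are also targets of Msn2 and Msn4, so that the lists overlap.

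Among the remaining lists, purine synthesis had 6 of 20 genes lower and 0 higher at an unadjusted p below 0.05, with a median of −0.06. Beside this and the lists below, 4.88% of all genes were higher and 6.87% lower at that p. MTD1, an enzyme of one-carbon metabolism on that list, averaged 62.8 ± 8.65 CPM at 130 µL/s and 53.4 ± 7.77 CPM at 210 µL/s, against 69.1 ± 9.84 CPM at 50 µL/s (SD, n = 6 each), and had a log2 fold change of −0.27 (SE 0.078, adjusted p = 0.202, edgeR). Hypoxic and anaerobic genes had a median of 0.07 with 3 of 22 higher and 0 lower. DAN1, a cell wall mannoprotein made without oxygen, had a log2 fold change of 0.23 (SE 0.11, adjusted p = 0.407, edgeR), and one of 0.12 without the 50 µL/s library of B1T3. Peroxisome and fatty acid oxidation genes had 5 of 38 higher and 0 lower with a median of 0.01, among them POT1, the peroxisomal thiolase, at 0.30 (SE 0.075, adjusted p = 0.202, edgeR).

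Chaperones and targets of the heat shock factor Hsf1 were split, with 2 of 25 higher and 6 lower at an unadjusted p below 0.05. The shares over all genes were 4.88% higher and 6.87% lower, and several of the counts below are near them. The 2 higher members were HSP26 and HSP12, which are on the stress response list too. Genes that report on the cell wall integrity pathway, which senses stretch of the cell surface, had 1 of 19 higher and 3 lower with a median of −0.01. Their median was negative in 12 of 12 pairs, at −0.08 to 0.00, and was as small as −0.006 at both speeds in B2T2. The median of all genes was itself negative in 7 of 12 pairs. Osmotic response and glycerol genes had 3 of 22 higher and 1 lower with a median of −0.01. In the proteasome list 1 of 34 genes was higher and 0 lower, and 0 of 25 ergosterol synthesis genes differed at an unadjusted p below 0.05. Nitrogen catabolite repression genes had 4 of 26 higher and 1 lower, with GAP1, the general amino acid permease, at a log2 fold change of 0.11 (SE 0.027, adjusted p = 0.155, edgeR). No member of any list passed an FDR of 0.01.

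Whether the difference from 50 µL/s was alike in both cultures and in the 3 technical replicates was tested with interaction terms. Between the cultures 0 of 5142 genes passed an FDR of 0.01 (edgeR's quasi-likelihood test, the only tool run here), with 167 (3.25%) at an unadjusted p below 0.05. Between the technical replicates 0 genes passed as well, while 525 (10.2%) had an unadjusted p below 0.05 and 5 (0.0972%) an adjusted p below 0.05. Between technical replicates 11 genes passed an FDR of 0.01 without the 50 µL/s library of B2T2, and 1 without that of B1T2 or of B2T3. No gene had an adjusted interaction p below 0.05 in 15 of the 24 fits that left out 1 library, among them each fit without a library at 130 or 210 µL/s.

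The 5 genes were NDE1, QCR7, SUC2, HXT4 and GPP1, each with an adjusted p of 0.0434. NDE1, the mitochondrial NADH dehydrogenase that faces the cytosol, was at 140, 142, 265, 134, 170 and 456 CPM at 130 µL/s and at 159, 143, 245, 152, 162 and 383 CPM at 210 µL/s, against 148, 101, 421, 146, 184 and 666 CPM at 50 µL/s, in the order B1T1 to B2T3. The third technical replicate was the highest at each speed in both cultures, and in it the 50 µL/s library stood above the other two. The log2 fold change of NDE1 for both speeds together was −0.01 (SE 0.11) in the first technical replicate, 0.14 (SE 0.11) in the second and −0.70 (SE 0.096) in the third.

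QCR7, a subunit of respiratory complex III, had log2 fold changes of 0.09, 0.04 and −0.32 in the technical replicates T1, T2 and T3, and CYC1, the main cytochrome c, ones of 0.22, −0.08 and −0.50 with an adjusted interaction p of 0.237 (edgeR). SUC2, the invertase that glucose represses, had log2 fold changes of 0.34, 0.26 and −0.16, and HXT4, a glucose transporter of high affinity, ones of 0.23, 0.18 and −0.18. GPP1, a glycerol-3-phosphate phosphatase, ran opposite at −0.25, 0.00 and 0.23. A fit of the third technical replicate alone called 4 genes at an FDR of 0.01, NDE1, CYC1, INO1 and MGA1, all lower at the intermediate speeds, and none of them was among the 3 genes called over all libraries.

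**Figure D5:**
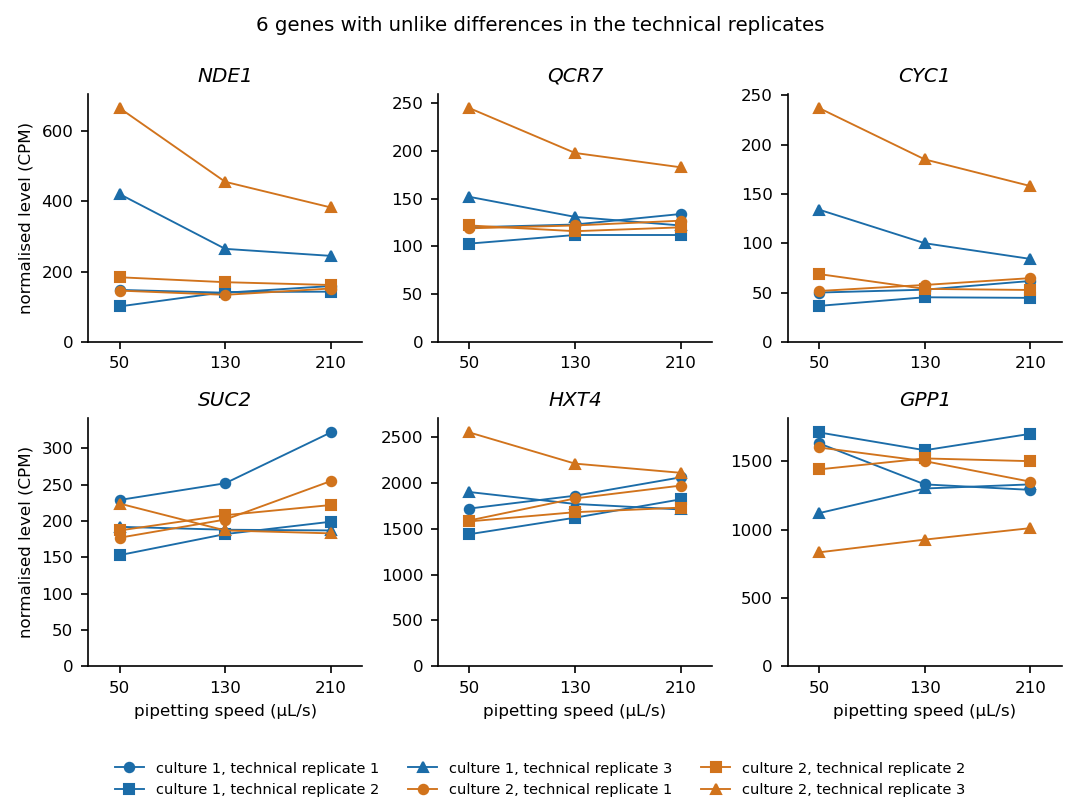
Level of 6 genes (CPM, y axis) at 50, 130 and 210 µL/s (x axis), with 1 line per culture (color) and technical replicate (symbol). In the third technical replicate (triangles) NDE1 reaches 421 and 666 CPM at 50 µL/s and is lower at both other speeds, whereas the lines of the other technical replicates stay between 101 and 184 CPM.

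COM2, TOS3 and TDA6 were chosen for their low p over these same libraries, so their sign within parts of them is no separate support. COM2 had log2 fold changes of −0.38, −0.18 and −0.23 (SE 0.059 each) in T1, T2 and T3, TOS3 ones of −0.39, −0.22 and −0.23, and TDA6 ones of −0.50, −0.32 and −0.34. By culture the log2 fold change was −0.31 and −0.21 for COM2, −0.26 and −0.30 for TOS3 and −0.48 and −0.29 for TDA6 in the first and second culture. None of these 3 genes had an adjusted interaction p below 0.05 (edgeR), the lowest being 0.524 for COM2 between technical replicates.

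Distances between whole profiles were then compared within the matched sets. The root mean square difference in log2 CPM over all genes was 0.190 ± 0.014 between 130 and 50 µL/s, 0.206 ± 0.025 between 210 and 50 µL/s and 0.176 ± 0.0074 between 210 and 130 µL/s (SD, n = 6 matched sets). The 50 µL/s library was farther from the other two than these were from each other in 5 of 6 sets, the exception being B2T2. The mean excess was 0.022 on the log2 scale, with an exact permutation p of 0.0096 (relabellings within the sets, two-sided), and the fragment length, which was shorter on average at 50 µL/s, was not included in this measure.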

How the data were processed

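Poly(A) RNA-seq of 24 libraries was used, 18 of them in the comparison. Reads were trimmed with fastp 0.23.2, aligned to a W303 genome with STAR 2.7.10a and counted with RSEM, per the labels and the methods of the study. The authors deposited RSEM's expected counts, not normalized, and TPM values scaled by gene length and library, for 5193 genes, beside gene lengths. Of the expected counts 23.8% were not whole, and they were rounded. A table of the whole series held the same values and was not used. The growth assay was not analysed here.

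The 51 genes averaging a count of 1 at most were dropped, and 5142 were kept. Names came from R64 by systematic name (5151 matched and 42 kept their identifier), and no coordinates or sequences of that build were used. Fragment length is gene length minus effective length.

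For the tests, edgeR 4.0.16 under R 4.3.3 was fitted to all 24 libraries (TMM factors, glmQLFit, then glmQLFTest) with speed and the 6 matched sets as terms. Adjustment was by Benjamini-Hochberg with a threshold of 0.01. The libraries at 290 µL/s entered the count filter, the TMM factors, the terms for the sets and the estimate of spread, but no contrast given here. The model of the study, speed and culture without the sets, was an alternative. The pairing comes from the labels: libraries of 1 set came from the same culture and technical replicate. Their deviations from the speed means correlated by 0.355 to 0.779 over genes. Libraries of different sets were not compared in this way, so these values give no separate support for the sets. The alternatives were additive replicate terms, 18 libraries or 2 speeds only, fits within 1 technical replicate or culture, DESeq2 1.42.0 and its size factors, total counts, limma-voom 3.58.1, the likelihood ratio test, the legacy fit, other filters, counts not rounded, an FDR of 0.05, fragment length as a covariate and each library left out. List medians under the other models and the interactions with each library left out were added after the data were seen. Library measures and distances used NumPy 2.4.6 under Python 3.11.15. Scripts were tested on simulated data.

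Genes named were those past the threshold, the 10 with the lowest p in each direction at 5 CPM or more for each contrast with 50 µL/s, the 2 members with the lowest p in each list, and URA2 and RPL39 from earlier results of these data. Genes outside this rule (NDE1, QCR7, CYC1, SUC2, HXT4, GPP1, GSY1, MGA1, ICL1, YNL194C, AMS1, TKL2, JIP3, MCM1, RPL26A, RPL33A and RPL14B) were chosen after their values were seen. The comparison, lists and tests were chosen with earlier results of these data known. Intervals cover counting error and spread between libraries only.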

Additional observations from a re-analysis of the deposited data

Results flagged for a closer look

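PLB3, a phospholipase B gene, had 1 library apart from the rest of its group at both intermediate speeds. At 130 µL/s the library of culture 1, technical replicate 2 was the highest at 78.15 CPM, where the next was 74.0 CPM, and at 210 µL/s the library of the same culture and replicate was the highest at 95.03 CPM, where the next was 74.5 CPM. The library of this culture and replicate was also the highest at 50 µL/s (92.0 CPM) and at 290 µL/s (82.9 CPM). Both flags thus come from 1 matched set and are not independent. These were 2 of 105 groups of 6 libraries examined over 35 genes (1.9%), and chance gives such a gap in about 1 in 20 groups. PLB3 had a log2 fold change of −0.14 for both speeds together (SE 0.036, adjusted p = 0.202, edgeR).

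The difference between speeds varied among the technical replicates, at an adjusted interaction p of 0.0434 by edgeR's quasi-likelihood test, for 5 genes. These were NDE1, QCR7, SUC2, HXT4 and GPP1, and none passed the FDR of 0.01. The number of genes with an adjusted interaction p below 0.05 was 0 in 15 of the 24 fits that left out 1 library, and it was highest, at 130, when the 50 µL/s library of B2T3 was left out.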

How the results depend on the processing

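With no replicate block (speed and culture, the model of the study) 0 genes were called for both speeds together and 0 at 210 µL/s, in place of 3 and 3, and COM2, TOS3 and TDA6 had log2 fold changes of −0.27, −0.28 and −0.39 with an adjusted p of 0.997 each (edgeR). With additive replicate terms both counts were 0, as they were within technical replicate 1, technical replicate 2, culture 1 or culture 2, where fewer libraries were fitted. Within technical replicate 3 alone 4 genes were called for both speeds together, 1 at 130 µL/s and 1 at 210 µL/s. At 210 µL/s the count was 1 with only the 18 libraries and 0 with only the 2 speeds, which called 2 genes for 210 against 130 µL/s. DESeq2 and the likelihood ratio test each called 5 genes for both speeds together and 6 at 210 µL/s, and 1 and 2 at 130 µL/s. At an FDR of 0.05 there were 5 genes for both speeds together. The cause of these differences was not tested. Size factors, total counts, limma-voom, the legacy fit, the filters, counts not rounded and fragment length as a covariate left each count within 1.5 times.

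With each library left out the counts ranged from 0 to 7 for both speeds together, 2 to 12 at 210 µL/s, 0 to 0 at 130 µL/s, 0 to 0 between 210 and 130 µL/s, 0 to 0 for the interaction with culture and 0 to 11 for that with technical replicate. COM2 stayed below 0.01 in 23 of 24 such fits, and TOS3 and TDA6 in 17 each. Among the 57 genes followed through the alternatives, the direction of uncalled genes changed in a few fits. Within technical replicate 1 the log2 fold change was 0.22 for CYC1 and 0.087 for QCR7, within technical replicate 2 it was 0.14 for NDE1 and 0.034 for QCR7, within technical replicate 3 it was 0.23 for GPP1, −0.18 for HXT4 and −0.16 for SUC2, and in culture 2 it was 0.031 for GPP1. Leaving out 1 library gave −0.072 to 0.056 for GPP1 and −0.125 to 0.004 for QCR7. The highest value came without the 50 µL/s library of B1T1 for GPP1 and without that of B2T3 for QCR7. INO1 and MGA1 were not followed through the alternatives. In the interaction fit their log2 fold changes were 0.009 and 0.27 in technical replicate 2, against −0.85 and −0.72 in technical replicate 3. The distance of the 50 µL/s library kept an exact permutation p between 0.00412 and 0.0453 under its alternatives.

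Depth limits genes near 0.505 CPM, and 2 cultures limit how far any difference can be taken beyond these libraries.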
